A study of Homo sapiens with 12 samples.

Results

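The genes described here are 10 that carry, or mark, the passage of a B cell into an antibody-secreting plasma cell: the transcription factors PRDM1, IRF4 and XBP1, the secretory genes JCHAIN and MZB1, and the surface proteins TNFRSF17, TNFRSF13B, CD27, CD38 and SDC1. They were chosen by their known roles, with the resistant-against-parental values of these libraries already in view, so their differences are given as a description with no p-value. All 10 were found among the 60675 gene identifiers of the count files. The libraries came from SUDHL6 and SUDHL16, diffuse large B-cell lymphoma (DLBCL) cell lines, each sequenced as 3 libraries of the parental line and 3 of a venetoclax-resistant line derived from it. Venetoclax (ABT-199) is an inhibitor of the anti-apoptotic protein BCL2. Each resistant line was obtained by long exposure to rising drug doses until it grew at 10 or more times its original IC50, and it was then kept in the drug, so each stands for 1 derived line. The paper states that parental and resistant cells alike went into fresh media for experiments. Whether that held venetoclax when RNA was taken is not given. The SUDHL6 libraries are CE-7 to CE-9 (parental) and CE-10 to CE-12 (resistant), and the SUDHL16 libraries are CE-25 to CE-27 (parental) and CE-28 to CE-30 (resistant).

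Plasma cell differentiation is known as a switch between opposed sets of transcription factors. BCL6, PAX5 and BACH2 hold the B-cell state, whereas IRF4 and BLIMP-1, the product of PRDM1, shut that state down and turn on antibody secretion, and XBP1 then enlarges the endoplasmic reticulum so that immunoglobulin can be folded and exported. DLBCL cells are arrested before the end of this path, and a high IRF4 level is a known feature of the activated B-cell-like subtype.

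Library totals ran from 33992784 to 40885665 counts in SUDHL6, and in SUDHL16 from 14335460 to 22068221 counts in 5 libraries but 4131927 in CE-26. CE-26, a parental SUDHL16 library, stood apart in other ways too: protein-coding genes took 55.4% of its counts, against 84.3% to 90.2% in the other SUDHL16 libraries, and its erythroid markers summed to 1359 CPM (read counts normalised to library size) against 149 and 246 CPM in the other parental SUDHL16 libraries and 5.47 to 135 CPM in the resistant ones. All 8 B-cell markers were detected at 1 CPM or more on average in every group. NK-cell markers summed to 24.9 CPM in CE-26 and to no more than 1.11 CPM in any other library, and all 5 epithelial markers reached 1 CPM in CE-26. The members' differences in SUDHL16 and the calls among other genes are therefore given with and without CE-26, and the part of CE-26 in a result that includes it was not tested beyond that. Fibroblast markers summed to 19.6 to 42.4 CPM in the 3 parental SUDHL16 libraries and to 0.133 to 0.422 CPM in the resistant ones. The erythroid and fibroblast markers thus moved with the SUDHL16 groups, and their part in the results was not tested. SUDHL6 libraries were made with a NEBNext Ultra II kit and SUDHL16 libraries with a stranded total RNA kit that depletes ribosomal RNA, and the platforms differed too, so line and kit cannot be told apart in any level compared between the lines.

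The 3 transcription factors did not follow 1 pattern over the 2 lines. In SUDHL6, IRF4 and XBP1 were lower in all 3 resistant libraries than in any parental library and PRDM1 stayed at a few counts throughout. In SUDHL16, PRDM1 and XBP1 were higher in all 3 resistant libraries than in any parental library, and IRF4 was higher in 2 of 3, or in all 3 with CE-26 left out.

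Promoter windows of PRDM1, XBP1, MZB1 and CD38 that held letters searched are shown, with that of JCHAIN. The factors named above are known to act on such sequences. Each is a RefSeq window of GRCh38.p14 that runs from 250 bases before a transcription start to 50 bases after it, 5′ to 3′ on the gene's strand. Of the 10 members, 9 had a window, 12 windows in all. PRDM1 and XBP1 each had another window, not shown, and neither it nor the IRF4 window held any of the letters searched. Capitals mark the letters searched: ACGTGG, the core of the site that XBP1 binds, in PRDM1 and MZB1; AANNGAAA, a core of sites bound by interferon regulatory factors, in CD38; and, in XBP1, CCAAT followed after 9 bases by CCACG, the form of the endoplasmic reticulum stress response element. JCHAIN, which holds none of them, is shown as the gene with the widest difference.

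PRDM1, chr6:106086086-106086385, + strand: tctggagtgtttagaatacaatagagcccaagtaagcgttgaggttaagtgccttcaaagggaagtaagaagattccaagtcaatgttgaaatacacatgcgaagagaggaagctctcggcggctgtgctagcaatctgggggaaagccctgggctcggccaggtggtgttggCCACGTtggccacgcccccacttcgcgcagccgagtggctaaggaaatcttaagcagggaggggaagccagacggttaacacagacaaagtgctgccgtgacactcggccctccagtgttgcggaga

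XBP1, chr22:28800520-28800819, − strand: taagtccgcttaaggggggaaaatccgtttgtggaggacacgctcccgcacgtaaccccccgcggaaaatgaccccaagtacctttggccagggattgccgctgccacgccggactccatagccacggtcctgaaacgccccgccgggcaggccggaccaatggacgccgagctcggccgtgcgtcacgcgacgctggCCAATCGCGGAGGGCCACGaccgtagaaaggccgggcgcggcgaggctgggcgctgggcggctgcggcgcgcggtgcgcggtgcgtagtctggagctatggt

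MZB1, chr5:139389864-139390163, − strand: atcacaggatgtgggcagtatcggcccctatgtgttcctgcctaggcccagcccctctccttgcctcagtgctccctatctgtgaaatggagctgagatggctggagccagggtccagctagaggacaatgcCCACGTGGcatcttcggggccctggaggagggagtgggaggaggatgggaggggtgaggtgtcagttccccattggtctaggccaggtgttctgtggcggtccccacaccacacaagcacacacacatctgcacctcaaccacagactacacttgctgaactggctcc

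CD38, chr4:15778078-15778377, + strand: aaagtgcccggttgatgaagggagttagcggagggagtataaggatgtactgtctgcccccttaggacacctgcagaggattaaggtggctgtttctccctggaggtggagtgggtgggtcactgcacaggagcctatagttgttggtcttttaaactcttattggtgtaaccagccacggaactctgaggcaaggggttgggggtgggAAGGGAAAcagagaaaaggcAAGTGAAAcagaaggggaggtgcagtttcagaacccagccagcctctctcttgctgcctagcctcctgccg

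JCHAIN, chr4:70666459-70666758, − strand: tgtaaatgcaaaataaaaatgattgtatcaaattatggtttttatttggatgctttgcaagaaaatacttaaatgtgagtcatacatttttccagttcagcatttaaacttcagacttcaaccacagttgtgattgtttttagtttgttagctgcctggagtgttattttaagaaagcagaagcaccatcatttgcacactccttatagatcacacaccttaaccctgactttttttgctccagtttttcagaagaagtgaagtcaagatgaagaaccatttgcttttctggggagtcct

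On either strand, ACGTGG was present in 9.72% of all 35116 windows and, among the members, in PRDM1, 77 bases before the start, and in MZB1, where the match 118 bases before the start and the one 116 bases before it overlap as a palindrome. AANNGAAA was present in 22.8% of all windows and in those of CD38 and CD27. The octamer ATTTGCAT, bound by OCT factors, was present in 1.77% of all windows and in no member's. The spaced CCAAT and CCACG pair was searched for after the XBP1 window had been read. It was present in 27 of all windows (0.0769%) and lay 52 bases before the start of XBP1. A match of letters is a description of the window and shows no binding.

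PRDM1 (chromosome 6, 105993463 to 106109939, + strand, GRCh38) encodes BLIMP-1, the repressor that ends the B-cell program. Its level in SUDHL6 was 0.528, 0.0884 and 0.319 CPM in CE-7, CE-8 and CE-9 and 0.174, 0.0989 and 0.193 CPM in CE-10, CE-11 and CE-12, from 3 to 18 counts a library. The SUDHL6 groups overlapped, and the gene was too low there to enter the test. In SUDHL16 the parental values were 0 in CE-25, 0.684 in CE-26 and 0 CPM in CE-27, the 2 counts of CE-26 being the only ones, whereas CE-28, CE-29 and CE-30 held 140, 269 and 254 counts, or 9.31, 12.6 and 10.7 CPM. All 3 resistant libraries thus lay above every parental library. The pooled counts of 663 and 2, each scaled by library size, gave a ratio of 206 with an exact 95% interval of 56.9 to 1708 that covers counting error only. With CE-26 left out the parental libraries held no count, and the resistant mean was at least 128-fold higher than 3 counts over the group would give. PRDM1 lies across ATG5, an autophagy gene on the opposite strand, whose level was 31.8 to 33.8 CPM in the parental and 31.98 to 44 CPM in the resistant SUDHL16 libraries. How the counting treated strand is not given in the sources used here.

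IRF4 (chromosome 6, 391739 to 411443, + strand), the factor that drives both early plasma cell commitment and plasma cell survival, was one of the most abundant members in SUDHL6. Its level there was 368, 368 and 363 CPM in the parental libraries and 192, 194 and 195 CPM in the resistant libraries. The groups did not overlap, and the resistant mean of 194 ± 1.59 CPM (SD, n = 3) was 52.9% of the parental mean of 366 ± 2.94 CPM (SD, n = 3), a log2 fold change of −0.92 (SE 0.0190). In SUDHL16 the gene was near the limit of detection in the parental libraries, at 0, 3.08 and 0.123 CPM in CE-25, CE-26 and CE-27 from 0, 9 and 2 counts. The resistant libraries held 2.66, 9.44 and 8.95 CPM from 40, 202 and 212 counts. CE-28, the lowest of them, lay below CE-26, so the groups overlapped, and the mean was 6.58-fold the parental mean. Without CE-26 the groups did not overlap, and the pooled 454 and 2 counts gave a ratio of 131 (exact 95% interval 36.0 to 1085). Even at its highest in SUDHL16, IRF4 stood at 9.44 CPM against 363 CPM or more in parental SUDHL6.

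XBP1 (chromosome 22, 28794555 to 28800597, − strand), the factor of the unfolded protein response that builds the secretory apparatus, was lower in resistant SUDHL6 and higher in resistant SUDHL16, with or without CE-26. Parental SUDHL6 libraries held 37.9, 40.0 and 40.9 CPM and resistant libraries 18.4, 23.4 and 19.4 CPM. These values left the resistant mean at 51.6% of the parental mean, with a log2 fold change of −0.96 (SE 0.0773) and no overlap. In SUDHL16 the parental libraries spread over 24.0, 16.8 and 8.07 CPM in CE-25, CE-26 and CE-27, and the resistant libraries lay at 90.6, 76.1 and 104 CPM. The resistant mean was 5.54-fold the parental mean, with a log2 fold change of 2.47 (SE 0.39), and 2.50 without CE-26. CE-26 lay between the other parental libraries for this gene. The counts are per gene, so the spliced form of the XBP1 transcript, which encodes the active factor, cannot be separated from the unspliced form.

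**Figure D1:**
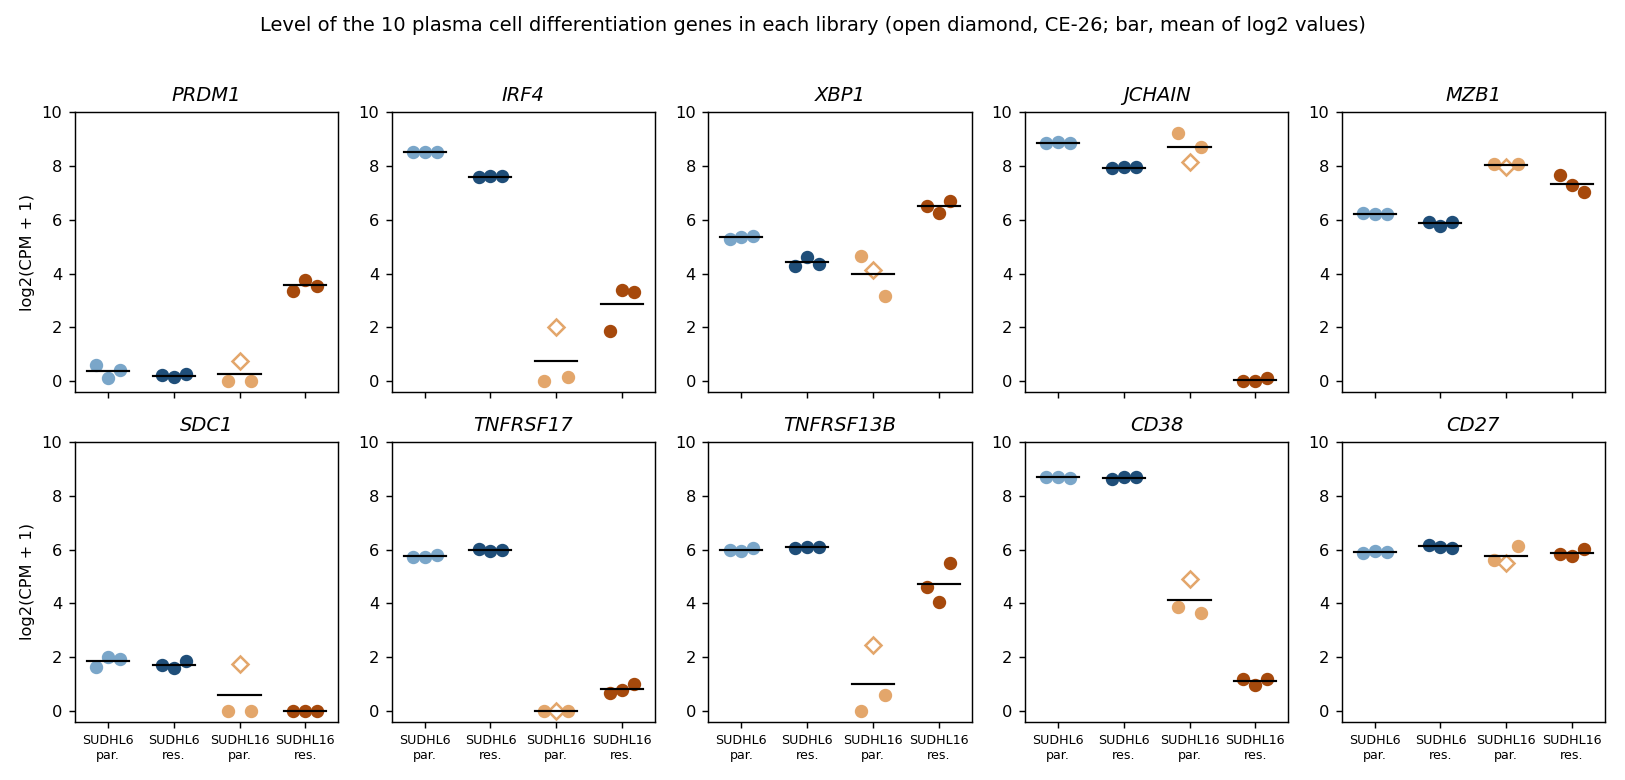
Level of each of the 10 genes as log2(CPM + 1) on the vertical axis in the 12 libraries, by group on the horizontal axis, each point 1 library, the open diamond CE-26 and each bar the group mean of the log2 values. IRF4, XBP1 and JCHAIN sit lower in resistant than in parental SUDHL6, while in SUDHL16 PRDM1 and XBP1 sit higher and JCHAIN lies at 282 to 600.1 CPM in parental and at 0 to 0.0844 CPM in resistant libraries.

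JCHAIN and MZB1 are genes of antibody assembly, and JCHAIN showed the widest difference of the 10. JCHAIN (chromosome 4, 70655541 to 70681817, − strand) encodes the joining chain that links immunoglobulin M and A units into polymers. It stood at 467, 469 and 464 CPM in parental SUDHL6 and at 243, 246 and 246 CPM in resistant SUDHL6, where the mean was 52.5% of the parental mean and the log2 fold change −0.93 (SE 0.0176). In SUDHL16, CE-25, CE-26 and CE-27 held 600.1, 282 and 420.4 CPM from 10971, 825 and 6823 counts. CE-28 and CE-29 held no count and CE-30 held 2 counts, or 0.0844 CPM. The parental to resistant ratio of the pooled counts was 14950, with an exact 95% interval of 4139 to 123500, and 15420 (4268 to 127300) without CE-26. JCHAIN was thus the most abundant member per length in parental SUDHL16 and was at or near 0 in the resistant line. In bulk libraries such as these, fewer cells that express a gene and less RNA per cell cannot be told apart.

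MZB1 (chromosome 5, 139387467 to 139390081, − strand), a resident of the endoplasmic reticulum that assists immunoglobulin folding, was lower in resistant cells of both lines, by less than JCHAIN in each. Its values were 75.0, 72.5 and 73.3 CPM in parental and 58.8, 54.0 and 59.4 CPM in resistant SUDHL6, a log2 fold change of −0.36 (SE 0.0371). In SUDHL16 they were 266, 246 and 269 CPM in the parental and 204, 154 and 130.2 CPM in the resistant libraries, a log2 fold change of −0.68 (SE 0.26) and −0.71 without CE-26. The groups did not overlap in either line, yet the resistant mean stayed at 78.0% of the parental mean in SUDHL6 and 62.4% in SUDHL16. MZB1 therefore remained above 50 CPM in every library, unlike JCHAIN.

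Of the 3 receptors of the tumour necrosis factor family, TNFRSF17 and TNFRSF13B were higher in every resistant SUDHL16 library than in any parental one, CD27 was not, and all 3 were slightly higher in resistant SUDHL6. TNFRSF17 (chromosome 16, 11965210 to 11968068, + strand) encodes BCMA, the receptor for BAFF and APRIL that sustains plasma cells. It stood at 51.6, 52.2 and 54.8 CPM in parental and 64.0, 60.9 and 62.4 CPM in resistant SUDHL6, a log2 fold change of 0.24 (SE 0.0337) with no overlap. No count was found in the 3 parental SUDHL16 libraries, whereas CE-28, CE-29 and CE-30 held 9, 15 and 24 counts, or 0.598, 0.701 and 1.01 CPM. The resistant level was at least 9.96-fold higher than 3 counts over the parental group would give. It was a low level all the same, near 1 CPM, and the floor of 3 counts in CE-26 alone corresponds to 1.03 CPM. TNFRSF17 lies within NPIPB2, on the opposite strand, a member of a family of near-identical genes that held 1.79 to 3.76 CPM in parental and 1.73 to 3.63 CPM in resistant SUDHL16 libraries.

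TNFRSF13B (chromosome 17, 16929816 to 16972118, − strand) encodes TACI, the other receptor that binds both BAFF and APRIL. SUDHL6 values of 62.6, 60.1 and 65.9 CPM in parental and 66.1, 68.0 and 68.4 CPM in resistant libraries gave a log2 fold change of 0.10 (SE 0.0353). SUDHL16 values were 0, 4.44 and 0.493 CPM in CE-25, CE-26 and CE-27 and 23.6, 15.7 and 44.6 CPM in CE-28, CE-29 and CE-30. Every resistant library was above every parental library. The resistant mean was 17.0-fold the parental mean, and 114-fold without CE-26, which held 13 of the 21 parental counts. TNFRSF13B shares its strand with the pseudogene TBC1D27P at its end, which held 0.875 to 7.86 CPM in the parental and 20.2 to 29.8 CPM in the resistant SUDHL16 libraries, and how reads of the shared stretch were divided is uncertain.

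CD27 (chromosome 12, 6444955 to 6451718, + strand), the receptor for CD70 that marks memory B cells and plasma cells, differed little. It was at 57.3, 61.6 and 59.8 CPM in parental and 72.1, 67.9 and 66.4 CPM in resistant SUDHL6, 115.5% of the parental mean. In SUDHL16 it was at 47.5, 44.4 and 69.7 CPM in parental and 56.9, 53.4 and 63.5 CPM in resistant libraries, and the groups overlapped, with a log2 fold change of 0.10 (SE 0.24), and −0.01 (SE 0.24) without CE-26. Its antisense partner CD27-AS1 covers most of the gene on the other strand and held 13.5 to 23.6 CPM in parental SUDHL16.

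CD38 (chromosome 4, 15778275 to 15853232, + strand), the surface enzyme that breaks down NAD and is strongly expressed on germinal centre B cells and plasma cells, was alike in the 2 SUDHL6 groups and apart in SUDHL16. In SUDHL6 it lay at 411, 417 and 408 CPM in parental and 399, 411 and 417 CPM in resistant libraries, 99.3% of the parental mean. In SUDHL16 it lay at 13.5, 29.1 and 11.4 CPM in CE-25, CE-26 and CE-27 and at 1.26, 0.934 and 1.31 CPM in CE-28, CE-29 and CE-30. The groups did not overlap, and the resistant mean was 6.50% of the parental mean, or 9.46% without CE-26, with log2 fold changes of −3.92 (SE 0.51) and −3.40 (SE 0.40). CD38 thus differed in the opposite direction to PRDM1 and XBP1 in SUDHL16, although all 3 are known to be high in plasma cells.

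SDC1 (chromosome 2, 20200797 to 20225433, − strand) encodes CD138, the proteoglycan used to sort plasma cells. It was low in SUDHL6, at 2.08, 3.01 and 2.80 CPM in parental and 2.26, 2.004 and 2.59 CPM in resistant libraries, with overlapping groups. In SUDHL16 only CE-26 held any, 7 counts, and the other 5 libraries held none, so no fold is given. A count of 0 in the resistant libraries allows a level of up to 0.127 to 0.200 CPM at 3 counts.

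**Figure D2:**
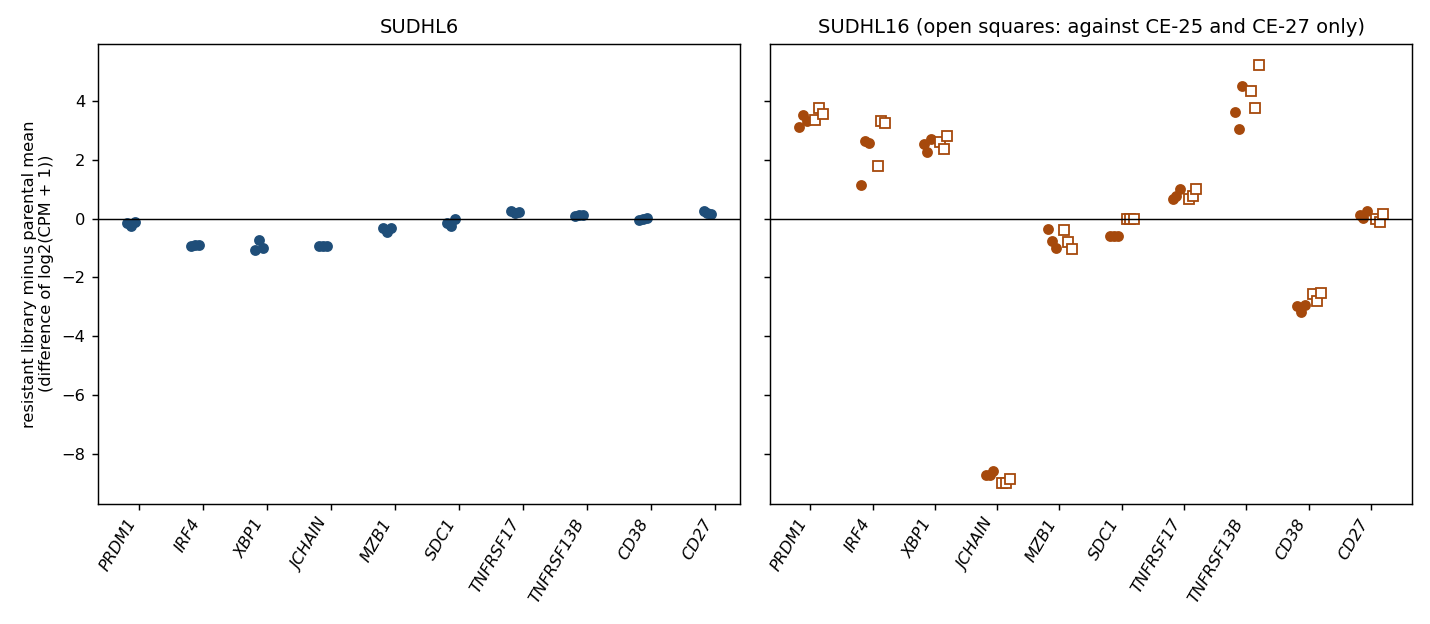
Difference of log2(CPM + 1) between each resistant library and the parental mean of its line, for each gene on the horizontal axis. Filled points are single resistant libraries against all 3 parental libraries and open squares, in SUDHL16, against CE-25 and CE-27 alone. In SUDHL6 the 3 points of IRF4, XBP1 and JCHAIN lie near −1, and in SUDHL16 those of PRDM1, IRF4, XBP1 and TNFRSF13B lie above 0 and those of JCHAIN and CD38 below it.

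A gene was called where edgeR's quasi-likelihood test gave a Benjamini-Hochberg adjusted p under 0.05 over all genes tested and a change of at least 1.5-fold. In SUDHL6, 0 of the 9 members tested were called higher and 3 (IRF4, XBP1 and JCHAIN) lower, where 4.31% and 4.65% of all 16662 genes tested were called higher and lower. In SUDHL16, 2 of the 8 members tested (PRDM1 and XBP1) were called higher and 2 (JCHAIN and CD38) lower, where 3.20% of 15708 genes were called higher and 2.10% lower. Without CE-26, 5 of 9 members (PRDM1, IRF4, XBP1, TNFRSF17 and TNFRSF13B) were called higher and the same 2 lower, beside 6.73% and 3.32% of 16280 genes. Because the members were proposed with these contrasts known, nothing is read from these shares. Nothing states that the 3 libraries of a group came from separate cultures, so any p-value measures only the spread between these libraries. In SUDHL16 the call of PRDM1 also ended without CE-28, CE-29 or CE-30, where its fitted log2 fold change was 7.08, 6.74 and 6.96, and that of XBP1 without CE-28 or CE-30, where it was 2.49 and 2.36.

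Ordered by CPM per kilobase of exon, the members ranked differently in the 4 groups. In parental SUDHL6, JCHAIN led at 302 ± 1.61 (SD, n = 3), followed by IRF4 at 61.4 and CD38 at 60.1, whose ranges overlapped, then came TNFRSF17, CD27, MZB1, TNFRSF13B, XBP1, SDC1 and PRDM1, each below the one before with no overlap. In resistant SUDHL6, IRF4 was the fifth, at 32.5 ± 0.267 per kilobase, behind TNFRSF17, CD38 and CD27. In parental SUDHL16 the order was JCHAIN at 281 ± 103, MZB1 at 114 ± 5.62 and CD27 at 40.8 ± 10.4 per kilobase, XBP1 and CD38 overlapped below them, and the 5 lowest genes, from TNFRSF13B to TNFRSF17, could not be separated by their ranges. Without CE-26 the 3 highest means were 352, 125 and 47.3 per kilobase, in the same order. In resistant SUDHL16, MZB1 led at 71.1 ± 16.4 per kilobase with CD27 at 43.8 ± 3.87 and XBP1 at 29.8 ± 4.57, while PRDM1 at 1.61 ± 0.242 and IRF4 at 1.18 ± 0.634 overlapped, as did IRF4 and TNFRSF17 at 0.759 ± 0.213.

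Genes known to accompany the members were followed on 6 lists of 113 genes in all, 4 of them on more than 1 list. These genes are not members, and their tests are given gene by gene. The lists were drawn up from known biology with results of these data known, so nothing is read from the share of a list that was called. In SUDHL6, 3 of 106 tested list genes were called higher and 12 lower, beside 4.31% and 4.65% of all genes tested. Their median log2 fold change was −0.11 against 0.00 for all genes tested. In SUDHL16, 7 of 98 were called higher and 1 lower, beside 3.20% and 2.10%, with a median of 0.08 against −0.02. Without CE-26, 13 of 99 were called higher and 6 lower, beside 6.73% and 3.32% of all genes tested.

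Of the plasma cell genes other than the 10 members, 22 were tested in SUDHL6, where 1 rose and 5 fell. Beside these, 4.31% and 4.65% of all genes were called higher and lower. The list's median log2 fold change was −0.15. SSR4, part of the translocon-associated complex, fell from 90.9 ± 2.09 to 47.2 ± 1.72 CPM (SD, n = 3; log2 fold change −0.95, SE 0.0331, edgeR adjusted p = 4.56e-10). PIM2, a survival kinase, fell from 115 ± 1.03 to 68.2 ± 1.80 CPM (−0.76, edgeR adjusted p = 6.88e-10). DERL3, which returns misfolded proteins from the endoplasmic reticulum, fell from 12.7 to 6.98 CPM (−0.86, edgeR adjusted p = 1.09e-05). TXNDC5, a disulfide isomerase, fell from 298 to 199 CPM, by 0.59 on the log2 scale, so close to the 1.5-fold limit that it missed it without CE-7, CE-8 or CE-10, where it fell by 0.58, 0.56 and 0.57. Also called were TENT5C (0.572 to 0.111 CPM), which fell, and CCR10, a homing receptor (2.51 to 6.38 CPM), which rose, both outside the rule for named genes and chosen after their values were seen.

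In SUDHL16 the same list held 3 of 21 tested genes that rose and 1 that fell, beside 3.20% and 2.10% of all genes. Its median log2 fold change was 0.06. ITM2C, a membrane protein abundant in plasma cells, rose from 1.88 ± 1.38 to 90.0 ± 21.6 CPM (SD, n = 3; log2 fold change 5.90, SE 0.51, edgeR adjusted p = 0.000704). CD59, an inhibitor of complement, rose from 12.96 ± 3.003 to 58.0 ± 11.9 CPM (2.14, edgeR adjusted p = 0.00409). Both passed without any 1 of the 6 libraries, at 6.33 and 2.01 without CE-26, where CCPG1 was also called higher (0.99) and FCRL5 lower (−1.32), both named after their values were seen. PIM2 rose from 62.5 ± 17.3 to 197 ± 44.6 CPM (1.65, edgeR adjusted p = 0.0185), and ELL2, an elongation factor that favours secreted immunoglobulin, fell from 8.32 ± 1.64 to 1.46 ± 0.584 CPM (−2.49, edgeR adjusted p = 0.0348). These last changes missed the threshold without CE-25, CE-27, CE-28, CE-29 or CE-30, at adjusted p of 0.0501 to 0.0931 for PIM2 and 0.0836 to 0.141 for ELL2, and passed without CE-26, at 1.46 and −2.37. BHLHA15, which encodes the plasma cell factor MIST1, held no count in either resistant line. The parental libraries held few, 0 to 7 counts in SUDHL6 and 0 to 13 in SUDHL16, the 13 being those of CE-26.

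The genes of the secretory pathway that XBP1 is known to support numbered 40, all tested in both lines. HSP90B1 and DNAJC3, 2 of the 40, fell in SUDHL6, near the 4.65% of all genes, and none rose by edgeR or DESeq2, with 4 higher at an unadjusted p under 0.05, and the list's median log2 fold change was −0.10. Lower values were found for 30 of the 40, 24 of them at an unadjusted p under 0.05, and most were small. The share of all genes under that unadjusted p is not given here, so nothing is read from these counts. HSP90B1, the chaperone GRP94, fell from 290.5 ± 3.75 to 147 ± 3.36 CPM (−0.99, SE 0.0232, edgeR adjusted p = 1.56e-11), and DNAJC3, a co-chaperone, from 83.9 ± 1.76 to 50.5 ± 0.593 CPM (−0.73, edgeR adjusted p = 1.35e-09). In SUDHL16, where XBP1 was 5.54-fold higher, HERPUD1 rose, 1 of the 40 beside 3.20% of all genes (41.9 ± 9.65 to 109 ± 22.8 CPM, 1.37, edgeR adjusted p = 0.0240), 22 of 40 were higher, and the median was 0.07. At an unadjusted p under 0.05, 3 of the 40 were higher and 4 lower there, and DESeq2 called 3 higher and 3 lower. HERPUD1, which serves the degradation of misfolded proteins, missed the threshold without CE-27, CE-28, CE-29 or CE-30 (adjusted p of 0.0575 to 0.121). Without CE-26, HERPUD1 was at 1.31 and DERL2 was also called (12.4 to 29.99 CPM, edgeR adjusted p = 0.0246). HSPA5 and SEC61A1, well-known members of the list named for their role, had log2 fold changes of −0.18 and −0.08 in SUDHL6 and of −0.80 and 0.21 in SUDHL16 and were not called.

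**Figure D3:**
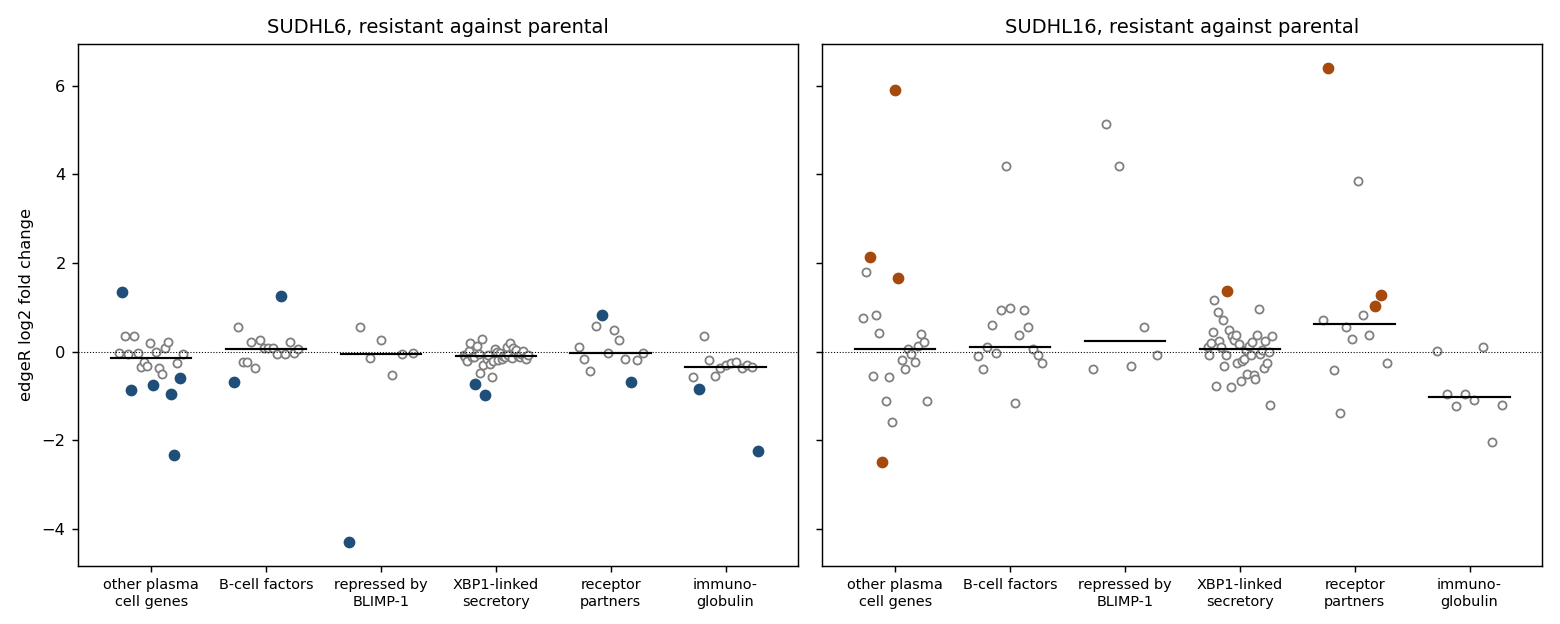
edgeR log2 fold change of each tested gene, resistant against parental, on the vertical axis, by list on the horizontal axis and by line. Filled points were called, open points were not, and bars are list medians, the lowest and highest being −0.35 and 0.07 in SUDHL6, and −1.03 and 0.62 in SUDHL16.

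Factors that hold back plasma cell differentiation gave 1 call in each direction in SUDHL6, beside 4.31% of all genes called higher and 4.65% lower. In SUDHL16 edgeR called 1 of 15, ID3, and only when CE-26 was left out, beside 6.73% of all genes called higher. Of 16 tested in SUDHL6, MEF2C, a factor of germinal centre B cells, rose from 3.20 ± 0.388 to 7.69 ± 0.527 CPM (1.26, edgeR adjusted p = 3.22e-06), and BACH2, a repressor of PRDM1, fell from 97.6 ± 2.19 to 60.9 ± 1.76 CPM (−0.68, edgeR adjusted p = 4.21e-09). None of 15 was called in SUDHL16 by edgeR with all libraries, where 4 were higher and 1 lower at an unadjusted p under 0.05, and DESeq2 called 3 higher and 1 lower. PAX5, the factor of B-cell identity, lay at 286 to 843 CPM in parental and 873 to 1053 CPM in resistant SUDHL16, and BCL6, the factor of the germinal centre, at 411 to 654 and 365 to 450 CPM, neither of them called. The lowest parental value of PAX5 was that of CE-26. IRF8 was at 90.2 to 130 and 121 to 155 CPM and was not called either. On simulated data the SUDHL16 fit called 2.0% of 2-fold and 61.0% of 4-fold changes, so a gene not called there may still differ.

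Genes known to be repressed by BLIMP-1 were looked at because PRDM1 was found in resistant SUDHL16 and hardly anywhere else. None of the 6 tested there was called by edgeR with all libraries, the median log2 fold change was 0.24, and 2 were higher at an unadjusted p under 0.05, of which DESeq2 called 1. Without CE-26, 2 of 6 were called and both rose, beside 6.73% of all genes called higher. CIITA, the activator of HLA class II genes, rose from 0.401 ± 0.00912 (SD, n = 2) to 174 ± 52.9 CPM (SD, n = 3; edgeR adjusted p = 6.42e-05), and with CE-26 its adjusted p was 0.0699. ID3, an inhibitor of E proteins, held no count in CE-25 and CE-27 against 334 to 488 counts in the resistant libraries (edgeR adjusted p = 0.000393). MYC, PAX5, SPIB and BCL6 had log2 fold changes of −0.32, 0.54, −0.07 and −0.40 with all libraries. Without CE-26 these were −0.35, 0.20, −0.19 and −0.55, and none was called in either fit.

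Partners of the member receptors included the ligand of CD27. CD70 rose in SUDHL16 from 1.75 ± 2.93 CPM, CE-26 holding 15 of the 17 parental counts, to 63.8 ± 9.73 CPM (SD, n = 3; log2 fold change 6.402, edgeR adjusted p = 0.0276). TRAF3, an adaptor that restrains BAFF-receptor signalling, rose from 69.0 ± 2.12 to 141 ± 11.3 CPM (1.03, edgeR adjusted p = 0.0281), and TRAF5, an adaptor of CD27, from 28.01 ± 7.78 to 66.9 ± 8.73 CPM (1.27, edgeR adjusted p = 0.0290). These were 3 of 12 tested, beside 3.20% of all genes called higher, and none fell. Without CE-26, 5 of 12 rose, beside 6.73% of all genes. They were those 3 (CD70 from 2 counts, TRAF3 by 1.02 and TRAF5 by 1.51 on the log2 scale), TNFRSF13C, the BAFF receptor (204 ± 22.8 to 430 ± 111 CPM, 1.08, edgeR adjusted p = 0.0398), and PECAM1, a ligand of CD38, named after its values were seen. PECAM1 lay at 0.747 to 1.65 CPM in the resistant libraries, below the 9.23 CPM (27 counts) of CE-26. With all libraries its log2 fold change was −1.39, against 7.35 without CE-26. The median over the 12 without CE-26 was 1.05 against 0.05 for all genes. CD70 missed the threshold without CE-27 or any 1 resistant library (adjusted p of 0.0691 to 0.128), and TRAF3 and TRAF5 without any 1 library but CE-26 (0.0872 to 0.136 and 0.0734 to 0.117). In SUDHL6, 1 of 12 rose and 1 fell, beside 4.31% and 4.65% of all genes. MCL1, the anti-apoptotic protein that BCMA signalling is known to maintain, rose from 528 ± 1.93 to 933 ± 1.88 CPM (0.82, edgeR adjusted p = 1.85e-12). TRAF3 fell there from 23.4 ± 0.544 to 14.6 ± 0.693 CPM (−0.68, edgeR adjusted p = 2.05e-06).

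Immunoglobulin genes, which JCHAIN and MZB1 serve, had negative medians in both lines. The list also holds PIGR, which encodes a receptor of immunoglobulin and not a chain of it. In SUDHL6, 12 of 13 tested were lower (median log2 fold change −0.35). IGHA2 and PIGR, both under 2 CPM, were called lower, beside 4.65% of all genes. Near-identical copies such as IGHG1 to IGHG4 are among the 13, and the counting may have divided their reads. IGHM, the heavy chain of immunoglobulin M, was at 3027 to 3183 CPM in parental and 2602 to 2666 CPM in resistant SUDHL6, a difference below the 1.5-fold limit. SUDHL16 held almost no IGHM (0 to 3 counts a library), and IGHG1 held the most counts of its heavy chain genes, at 806 to 1452 CPM in parental and 465 to 746 CPM in resistant libraries. No immunoglobulin gene was called by edgeR in SUDHL16 with all libraries, the median of 8 tested was −1.03, and 5 were lower at an unadjusted p under 0.05, of which DESeq2 called 3. Without CE-26, IGHG1, IGHG2, IGHG3 and IGHG4 fell (IGHG1 by 1.16 on the log2 scale, edgeR adjusted p = 0.0235), 4 of 8 tested beside 3.32% of all genes. These 4 are near-identical copies whose reads the counting may have divided. IGKC, the kappa light chain, lay at 640 to 1118 CPM in parental and 760 to 1089 CPM in resistant SUDHL16, so that JCHAIN was at or near 0 in libraries that held transcripts of both immunoglobulin chains.

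The chromosomal surroundings of the called members were examined next. ENAM, the protein-coding gene before JCHAIN, and RUFY3, chosen after its value was seen, were called lower in SUDHL16 along with it. The annotated gene start of RUFY3 lies 22.4 kb from that of JCHAIN. In SUDHL16, 2 of 6 tested genes within 1 Mb of JCHAIN were called lower and 0 higher, beside 2.10% and 3.20% of all genes. Their median log2 fold change was −0.91 against −0.02 for all genes tested. Without CE-26, 2 of 6 were again called lower, beside 3.32% of all genes, with a median of −0.78 against 0.05. ENAM was at 2.22 ± 1.72 CPM in parental libraries and held no count in the resistant ones (edgeR adjusted p = 0.0342), and UTP3, the gene after JCHAIN, was at 34.9 ± 8.62 and 13.1 ± 9.16 CPM (SD, n = 3; edgeR adjusted p = 0.146). In SUDHL6, where JCHAIN was 52.5% of the parental mean, ENAM and UTP3 had log2 fold changes of −0.30 and −0.27 and were not called. Beside IRF4, DUSP22, a phosphatase gene, rose in SUDHL16 without CE-26 from 19.1 ± 0.377 (SD, n = 2) to 88.5 ± 11.7 CPM (SD, n = 3; 2.21, edgeR adjusted p = 0.000766), whereas EXOC2, on the other side, was at −0.29 and was not called. In SUDHL6, DUSP22 had a log2 fold change of −0.40, below the 1.5-fold limit.

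TTC28, 121 kb from XBP1 and chosen after its values were seen, was called lower in SUDHL6 (−0.89) and higher in SUDHL16 without CE-26 (2.15), whereas CCDC117, the gene before XBP1, was not called in either line. ZNRF3, the gene after XBP1, fell in SUDHL6 from 3.56 ± 0.354 to 2.25 ± 0.296 CPM (SD, n = 3; −0.66, edgeR adjusted p = 0.00441) and was too low in SUDHL16 to be tested. Around TNFRSF13B, 11 of 22 tested genes within 1 Mb were called higher and none lower in SUDHL16 without CE-26, beside 6.73% and 3.32% of all genes. Their median log2 fold change was 1.06 against 0.05 for all genes tested. MPRIP, the next gene after TNFRSF13B, rose from 206 ± 21.9 (SD, n = 2) to 403 ± 52.2 CPM (SD, n = 3; edgeR adjusted p = 0.0296). The TNFRSF13B difference itself, 6.86 on the log2 scale, was larger. Around PRDM1, edgeR called 0 of 8 neighbours with all libraries (1 higher and 3 lower at an unadjusted p under 0.05, and 1 lower by DESeq2), and PREP and ATG5, the genes before and after it, differed by 0.00 and 0.23 on the log2 scale. When CE-26 was left out, 1 of the 8 was called lower, beside 3.32% of all genes. This was CD24 at 982 kb (−0.84), which was called lower in SUDHL6 too (−0.93), and it is named after its values were seen. Around TNFRSF17 in SUDHL16 without CE-26, 4 of 13 neighbours were called higher and none lower, beside 6.73% and 3.32% of all genes. Among the 4 was the next gene, SNX29, which rose from 50.8 ± 4.46 (SD, n = 2) to 152 ± 31.9 CPM (SD, n = 3; 1.58, edgeR adjusted p = 0.00563). Genes within 1 Mb of CD38 gave 0 calls among 4 tested by edgeR, 0 at an unadjusted p under 0.05 and 0 by DESeq2, and again 0 of 4 without CE-26.

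**Figure D4:**
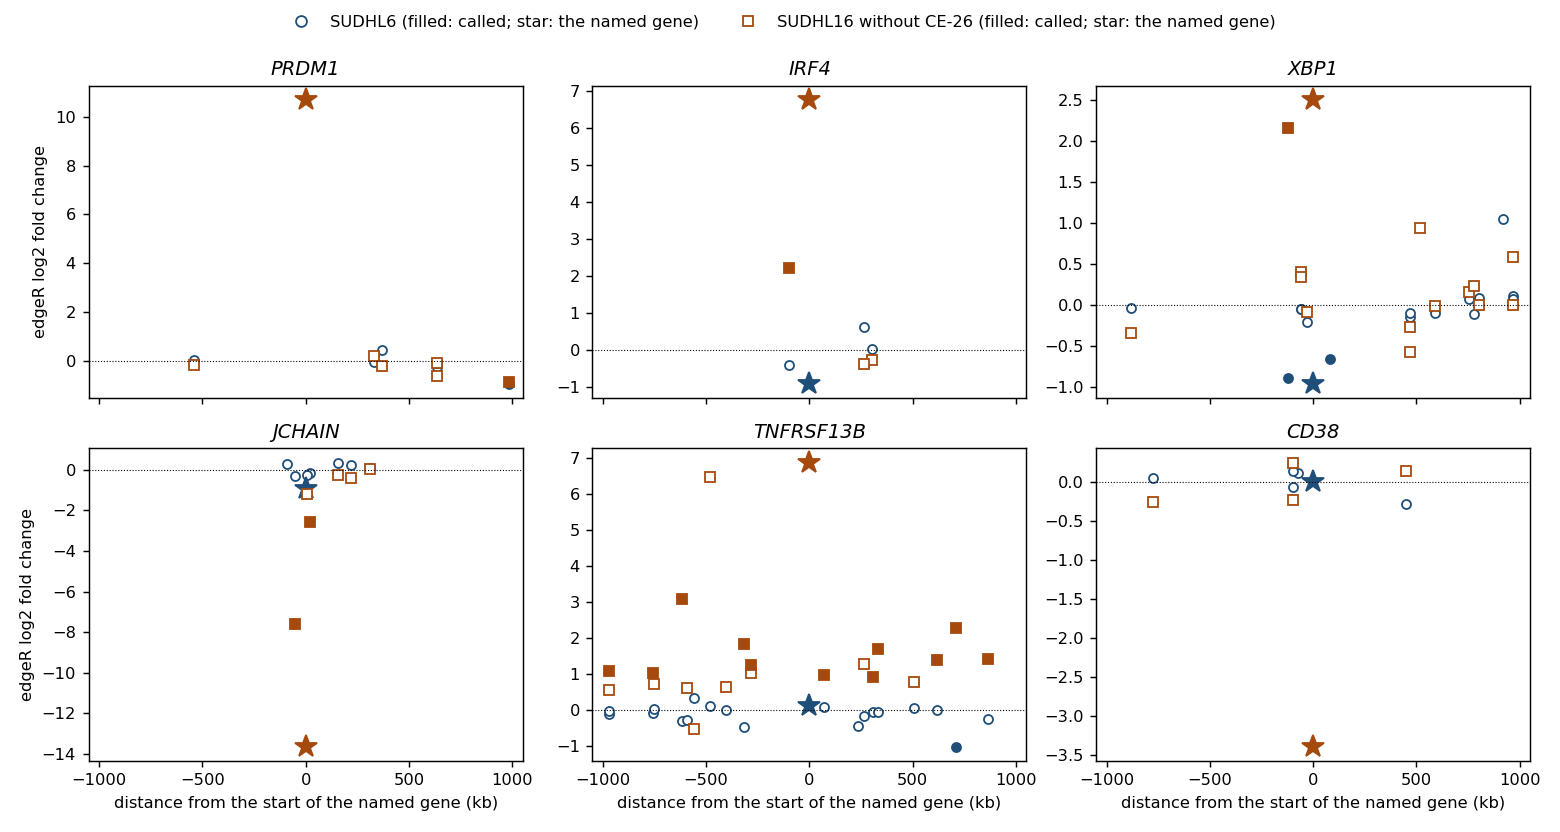
edgeR log2 fold change of the protein-coding genes within 1 Mb, on the vertical axis, against their distance in kb from the GENCODE gene start of each of 6 members, in SUDHL6 (circles) and in SUDHL16 without CE-26 (squares). Filled symbols were called and stars are the members. The stars of PRDM1 and JCHAIN in SUDHL16 are fitted values that rest on 0 parental and 2 resistant counts. Filled squares are spread along the TNFRSF13B window, 11 in all.

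Genes whose pattern was most like that of a member were named from Pearson's r over the 12 libraries, in log2 CPM with the mean of each line removed, among 8855 or 8856 protein-coding genes. The points share libraries, depth and the same contrast, so r is a description. PRDM1 was most like DGAT2 (0.979), TMEM63A (0.974) and ST3GAL1 (0.973). DGAT2 stood at 11.3 and 11.1 CPM in parental and resistant SUDHL6 and at 6.15 and 12.3 CPM in SUDHL16. IRF4 was most like FAM162A (0.970), AMACR (0.964) and APOL6 (0.957), of which APOL6 also shared the lower level in resistant SUDHL6, at 21.7 against 11.7 CPM. XBP1 was most like CRTC3 (0.973), TUT4 (0.969) and C1orf43 (0.962). CRTC3 followed both directions of XBP1, at 8.90 and 4.98 CPM in SUDHL6 and 1.92 and 14.8 CPM in SUDHL16.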

How the data were processed

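RNA was extracted with TRIzol from parental and venetoclax-resistant SUDHL6 and SUDHL16 cells and sequenced as 12 libraries, 3 in each of 4 groups. Per the submitters' processing notes, reads were trimmed with Trim Galore and handled with HISAT2, StringTie and edgeR on GRCh38. The authors deposited raw counts per Ensembl gene, 1 column a library; the counting tool, annotation and strand setting are not given in the sources used here. Of 60675 identifiers, 56558 were matched to GENCODE 44 for symbols, types and positions. Distances between genes run between GENCODE gene starts, which for JCHAIN and PRDM1 differ from the RefSeq starts of the promoter windows. No column was left unused and no library was dropped or imputed.

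Each line was fitted alone with edgeR 4.0.16 (R 4.3.3; filterByExpr, TMM, glmQLFit, two-sided glmQLFTest), with no covariate. CPM were computed here from counts and TMM-scaled totals, and per kilobase over merged exons. A gene was called at a Benjamini-Hochberg adjusted p under 0.05 and at least 1.5-fold. The SE of an edgeR log2 fold change is that change divided by the square root of the test's F. Alternatives were DESeq2 1.42.0, upper-quartile scaling, library totals, no filter, limma 3.58.1 voom with quality weights, and each library left out. Replicates of a group were compared by chi-square and none agreed within sampling noise. The scripts were tested on simulated data. Ratios of pooled counts have exact 95% intervals, and the floor for a count of 0 is 3 counts, which cover counting error only.

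The members and lists were chosen with earlier results of these data known. Named list genes were up to 4 per list and line, called, with the smallest adjusted p and a mean of at least 5 CPM in either group, and named neighbours were the next protein-coding genes of a called member. For PRDM1, IRF4 and XBP1, the 3 most correlated protein-coding genes that average 5 CPM or more in both lines are given. The test of the difference between the lines was added after the values were seen. The name of 1 called list gene of SUDHL6 is not reported here.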

Additional observations from a re-analysis of the deposited data

Results flagged for a closer look

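XBP1 differed in opposite directions in the 2 lines, every resistant library lying below the parental range in SUDHL6 and above it in SUDHL16. Its log2 fold change in SUDHL16 minus that in SUDHL6 was 3.43, and this difference was not tested because the gene was chosen with both contrasts known. IRF4 also had log2 fold changes of opposite sign, −0.92 in SUDHL6 and 3.26 in SUDHL16, but its SUDHL16 groups overlapped unless CE-26 was left out.

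For the 16 named list genes, the difference between the lines was fitted as an interaction of line and resistance in 1 edgeR fit of all 12 libraries, with library kit and line inseparable. These genes had been picked for their calls in the same contrasts, so the values below are a description and no p is given for them. On the log2 scale, SUDHL16 minus SUDHL6, TXNDC5, BACH2, MEF2C and DNAJC3 gave 0.81, 1.30, −3.165 and 0.98. Without CE-26 they gave 0.59, 2.31, 0.31 and 0.73. PIM2 and TRAF3, which fell in SUDHL6 and rose in SUDHL16, had interaction values (SUDHL16 minus SUDHL6, log2) of 2.42 and 1.75, and without CE-26 of 2.18 and 1.66. Among genes called lower in SUDHL6, HSP90B1 gave 1.53, DERL3 1.81 and SSR4 0.77, and MCL1, which rose there, gave −1.22. Of the genes called in SUDHL16, values were 5.77 for ITM2C, 1.79 for CD59, −2.40 for ELL2, 1.69 for HERPUD1, 7.20 for CD70 and 1.53 for TRAF5.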

How the results depend on the processing

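In SUDHL6 the members called, the genes called and the list genes called stayed within 1.5 times their counts under every alternative and with each library left out. In SUDHL16 they did not. Genes called higher numbered 503, but 935 by DESeq2, 1677 by voom and 163 to 1095 with 1 library left out, and genes called lower 330, but 840, 971 and 116 to 541. Members called higher numbered 2, but 4 by voom and 0 to 5 with 1 library left out. List genes called higher numbered 7, but 13 by DESeq2, 20 by voom and 2 to 13 with 1 library left out, and lower 1, but 11, 12 and 0 to 6, and 0 with no filter. Fewer libraries leave fewer residual degrees of freedom, but the rise without CE-26, to 1095 and 541, ran the other way, and its cause was not tested. TNFRSF13B was also called higher in SUDHL16 with library totals, with no filter and by voom, where IRF4 was called higher and MZB1 lower too. Of 88 member values in SUDHL16, 7 moved by more than the replicate spread, and of 99 in SUDHL6, 2 did, with no change of sign. Of 88 values for named list genes in SUDHL16, 35 no longer passed, and of 110 in SUDHL6, 7, all of TXNDC5. Depth limits PRDM1, IRF4, SDC1, TNFRSF17 and TNFRSF13B most in parental SUDHL16, where 3 counts are 1.03 CPM in CE-26 and 0.164 and 0.185 CPM in CE-25 and CE-27.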
